A study of Mus musculus with 18 samples.

Results

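The genes Hoxa3, Hoxa5, Hoxa7, Hoxa9, Hoxa10, Meis1 and Pbx3, which encode HOX and MEIS/PBX transcription factors of blood progenitors, were chosen by symbol and are 7 of the 34896 genes with an expression value. All samples came from bone marrow of C57BL/6 mice, adults of 6 to 12 weeks. Granulocyte-monocyte progenitors (GMPs, sorted as lin- cKIT+ SCA- CD16/32+ CD34+ cells), neutrophil precursors (preNeu) and mature neutrophils (matNeu) of wild type (WT) mice were compared by RNA-seq, with 3 libraries for each cell type. ChIP-seq for the chromatin remodeler CHD4 was done in WT and in Gfi1-/- (Gfi1KO) GMPs, ChIP-seq for H3K4me2 in WT GMPs, preNeu and matNeu, and ATAC-seq in WT preNeu and matNeu, with 1 library for each. Marrow of several bones was pooled, and the sources do not say whether the RNA libraries came from separate animals, so that p-values measure only the spread between these libraries.

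HOX proteins are homeodomain transcription factors encoded in 4 clusters, and several of the HoxA cluster, HOXA7, HOXA9 and HOXA10 among them, are best known in blood for sustaining stem and progenitor cells and for driving acute leukemia when they stay expressed. MEIS and PBX proteins belong to the TALE homeodomain family and bind DNA together with HOX proteins, and the HOXA9, MEIS1 and PBX3 proteins form such a complex. GFI1 is a zinc finger repressor of the neutrophil lineage that is known to restrain Hoxa9 and Meis1, CHD4 is the ATPase of the NuRD repressor complex, and H3K4me2 marks promoters and enhancers that are active or poised.

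The cell type field of 13 of the 18 samples, all 9 RNA libraries among them, names another cell type than the title of the sample, and titles were used here. Summed TPM of markers followed the titles. The 6 GMP markers summed to 45267 to 47154 TPM in the GMP libraries and to at most 9360 elsewhere. The 5 preNeu markers summed to 138527 to 160545 in preNeu and the 5 matNeu markers to 17965 to 20803 in matNeu, each above every other library. H3K4me2 peaks covered 6.63%, 64.3% and 53.4% of the preNeu marker genes and their flanks in the lists titled GMP, preNeu and matNeu, 18.5%, 50.3% and 62.1% of the matNeu marker genes, and 38.0%, 38.9% and 27.9% of the GMP marker genes, which were thus not covered most in the GMP list. No expression value was at hand for Gfi1KO cells, so the loss of Gfi1 itself was not checked. Depth is unknown, since TPM values, which scale each library to the same total and correct for transcript length, keep no read totals.

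Of the files analysed here, the CHD4 peak lists alone bear on these genes under loss of GFI1. The bases below are those of 4 CHD4 sites and of the Meis1 promoter. The 1 site that was called in both genotypes lies in an intron of Meis1 and is shown over the bases shared by both peaks, chr11:18924928-18925128. The strongest site at Pbx3 (intron, 200 bases around the summit, chr2:34360147-34360346), a weaker intronic Pbx3 site with motifs (200 bases around the summit, chr2:34249697-34249896) and the only site in the HoxA cluster (whole peak, in a coding exon of Hoxa10, chr6:52232562-52232735) were called in WT alone. These 4 are on the plus strand of GRCm38. The Meis1 promoter is given on the strand of the gene up to its outermost start (chr11:19018986-19019219). A WT site that was not called in Gfi1KO (chr11:19018723-19019102) reaches into these bases, but its summit lies in the UTR, outside them. Capitals mark matches to AAATCA, the GFI1 core, to TGACAG, the MEIS core, to TGATTNAT, the PBX-HOX site, or to GAGGAAGT, the core of the myeloid factor SPI1 (PU.1), on either strand.
Meis1 intron, called in both genotypes: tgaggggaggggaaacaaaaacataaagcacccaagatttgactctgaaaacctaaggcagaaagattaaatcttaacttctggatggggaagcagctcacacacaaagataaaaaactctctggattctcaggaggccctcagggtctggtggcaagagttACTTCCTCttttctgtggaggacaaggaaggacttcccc
Pbx3 intron, strongest site: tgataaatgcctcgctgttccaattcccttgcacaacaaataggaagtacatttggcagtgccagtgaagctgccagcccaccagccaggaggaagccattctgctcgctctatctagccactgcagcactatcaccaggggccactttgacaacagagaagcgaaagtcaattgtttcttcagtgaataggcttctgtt
Pbx3 intron, weaker site: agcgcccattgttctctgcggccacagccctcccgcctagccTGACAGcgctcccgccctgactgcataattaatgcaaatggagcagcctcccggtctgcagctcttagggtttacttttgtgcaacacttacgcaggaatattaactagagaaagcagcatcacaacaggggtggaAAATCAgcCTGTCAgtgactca
Hoxa10 coding exon: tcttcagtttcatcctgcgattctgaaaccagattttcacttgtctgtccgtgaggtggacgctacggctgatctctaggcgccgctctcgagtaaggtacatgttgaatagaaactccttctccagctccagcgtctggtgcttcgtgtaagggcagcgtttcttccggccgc
Meis1 promoter: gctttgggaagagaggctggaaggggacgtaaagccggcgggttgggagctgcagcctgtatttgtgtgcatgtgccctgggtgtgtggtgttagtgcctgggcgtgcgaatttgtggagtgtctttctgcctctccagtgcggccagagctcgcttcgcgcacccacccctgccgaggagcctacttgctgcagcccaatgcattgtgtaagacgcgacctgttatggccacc

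In these sequences the Meis1 intronic site held 1 SPI1 core, and the weaker Pbx3 site held 1 GFI1 core between MEIS cores. The window of 200 bases around the WT summit of that Meis1 site also held 1 MEIS core, which lies outside the printed bases. The strongest Pbx3 site, the Hoxa10 site and the Meis1 promoter held none of the 4 motifs. Over windows of 200 bases around the summits of the 13 WT CHD4 sites at these genes, the GFI1 core was found in 1, the MEIS core in 2, the PBX-HOX site in 0 and the SPI1 core in 1. Over 35728 such windows of all WT CHD4 sites the shares were 12%, 15.6%, 2.37% and 11.7%. The form TGATTTAT of the PBX-HOX site holds the GFI1 core on its other strand. RefSeq promoters (250 bases before to 50 after the start, GRCm38.p6) were at hand for 6 of the 7 genes, Pbx3 being the exception, and for both starts of Hoxa10. Of these 7 promoters, 1 of Hoxa10 held the GFI1 core and that of Hoxa3 the MEIS core, and 0 held the other motifs. Among 32851 promoters, 14% held the GFI1 core, 19.2% the MEIS core, 3.22% the PBX-HOX site and 3.2% the SPI1 core.

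The summed expression of the progenitor factors lay almost entirely in GMPs, and 3 of the 7 genes, Meis1, Hoxa9 and Hoxa7, made up nearly all of it. The summed level of the 7 genes was 71.6, 71.6 and 72.4 TPM in the GMP libraries, 2.07, 2.29 and 1.66 TPM in preNeu, and 0.527, 0.216 and 2.90 TPM in matNeu. Each GMP library thus stood above every preNeu and matNeu library. In bulk RNA, fewer cells that express a gene and less RNA of it in each cell cannot be told apart.

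**Figure D1:**
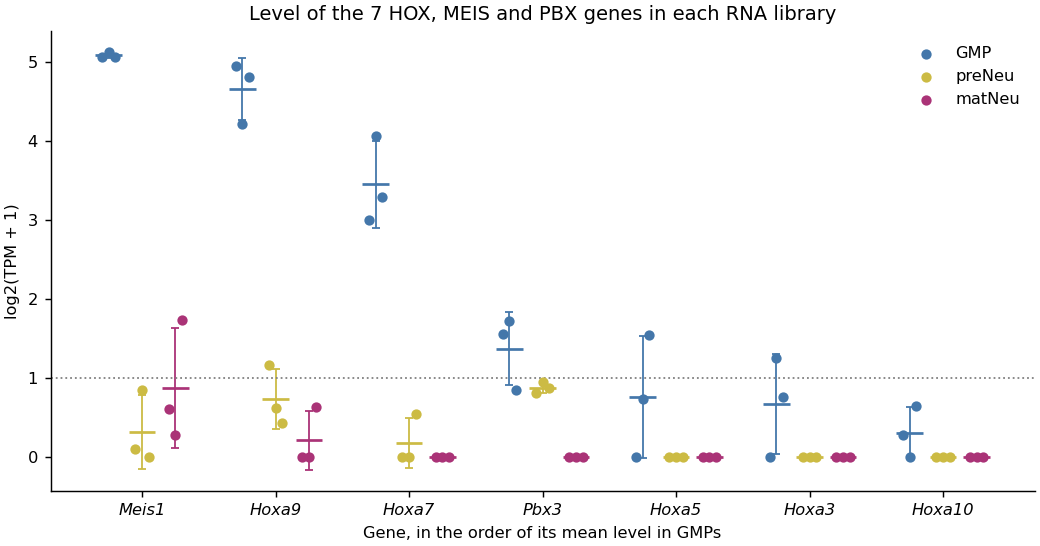
Levels of the 7 genes as log2(TPM + 1) in each of the 9 RNA libraries (points), with the mean (line) and SD (bar) over the 3 libraries of a cell type, and a dotted line at 1 TPM. Meis1, Hoxa9 and Hoxa7 were above 7 TPM in every GMP library and at most 2.34 TPM in the other libraries, and Hoxa3, Hoxa5 and Hoxa10 were at 0 outside GMPs.

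Meis1, the TALE cofactor that stabilizes HOXA9 on DNA, had the highest level of the 7 genes in GMPs. Its level was 32.5, 33.9 and 32.4 TPM in the GMP libraries (mean 32.9 ± 0.832, SD, n = 3), 0.0764, 0.812 and 0 TPM in preNeu and 0.527, 0.216 and 2.34 TPM in matNeu. The GMP libraries agreed closely and lay far above all others, while preNeu and matNeu overlapped. The highest matNeu value came from matNeu library 3, which also had the highest summed level of 5 lymphoid markers (53.8 TPM), and whether these are related was not tested. On the log2(TPM + 1) scale, the difference of Meis1 from GMP was -4.76 in preNeu (SE 0.39, adjusted p = 3.75e-06, limma) and -4.21 in matNeu (SE 0.39, adjusted p = 2.05e-06, limma).

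Hoxa9, the HOX gene most tied to myeloid progenitors and leukemia, came next. It was at 30.005, 17.6 and 27.1 TPM in GMPs (mean 24.9 ± 6.50, SD, n = 3), at 1.24, 0.547 and 0.350 TPM in preNeu and at 0, 0 and 0.562 TPM in matNeu. Against GMPs, Hoxa9 was lower by a log2(TPM + 1) difference of -3.92 in preNeu (SE 0.32, adjusted p = 4.05e-06, limma) and of -4.45 in matNeu (SE 0.32, adjusted p = 2.93e-07, limma). Hoxa7, its neighbor in the cluster, was at 7.01, 15.8 and 8.78 TPM in GMPs (mean 10.5 ± 4.63, SD, n = 3), at 0.468 TPM in preNeu library 3 and at 0 in the other 5 libraries. Hoxa7 was lower by a log2(TPM + 1) difference of -3.27 in preNeu (SE 0.32, adjusted p = 1.2e-05, limma) and of -3.45 in matNeu (SE 0.32, adjusted p = 2.01e-06, limma). The transcript that the table pairs with Hoxa7 is typed as nonsense-mediated decay, and the Hoxa7 gene overlaps the antisense gene Hoxaas3 while the libraries were made with a stranded kit and the strand setting of the quantification is not given in the sources used here.

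The other HOX members were at the edge of detection in GMPs. Hoxa5, from the middle of the cluster, was at 0, 0.671 and 1.93 TPM in the GMP libraries and at 0 in all 6 others. Hoxa3, from the 3' part of the cluster, was at 0, 1.39 and 0.704 TPM in GMPs and Hoxa10 at 0.216, 0 and 0.565 TPM, and both were at 0 in all other libraries. Each was thus listed at 0 in 1 of the 3 GMP libraries as well. The Hoxa3 gene model spans those of Hoxa4, Hoxa5, Hoxa6 and Gm28308, so that reads of these genes could be split among them.

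Pbx3, the PBX protein that partners HOXA9 and MEIS1, had another profile. Its level was 1.95, 2.30 and 0.803 TPM in GMPs, 0.753, 0.934 and 0.839 TPM in preNeu and 0 in all 3 matNeu libraries. GMP and preNeu overlapped, and both lay above matNeu. Pbx3 missed the filter of at least 1 TPM in 3 libraries. In a fit without that filter its log2(TPM + 1) difference was -0.50 between preNeu and GMP (SE 0.23, adjusted p = 0.129, limma), -0.88 between matNeu and preNeu (SE 0.23, adjusted p = 0.0133, limma) and -1.38 between matNeu and GMP (SE 0.23, adjusted p = 0.000778, limma).

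In GMPs the mean levels thus ran from Meis1 over Hoxa9 and Hoxa7 to Pbx3, Hoxa5, Hoxa3 and Hoxa10. The ranges of Meis1, Hoxa9, Hoxa7 and Pbx3 did not overlap each other, whereas Pbx3 overlapped Hoxa5, and Hoxa5, Hoxa3 and Hoxa10 overlapped one another. TPM is corrected for length, which allows levels of different genes to be set side by side.

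Of the 7 genes, 3 passed the filter, and all 3 were called lower in preNeu than in GMP and in matNeu than in GMP. Hoxa7 passed it only through its GMP libraries, and Hoxa9 and Meis1 each with help from the GMP libraries, so these counts describe the genes and are no support. Falling genes were common: 44.3% of 13061 genes were called lower and 14.7% higher in preNeu against GMP, and 54.1% lower and 22.8% higher in matNeu against GMP. The median log2(TPM + 1) change of all tested genes was -0.52 and -0.92 in these comparisons, against -3.92 and -4.21 for the 3 genes. With each library centered on its median, the split of lower and higher calls became 3166 to 3828 in preNeu against GMP and 4063 to 6023 in matNeu against GMP, in place of 5781 to 1925 and 7065 to 2976, while Meis1, Hoxa9 and Hoxa7 stayed lower.

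Between preNeu and matNeu, 0 of the 3 genes were called by limma, and 0 had an unadjusted p under 0.05, where 39.8% of all genes were called lower and 22.9% higher (median change -0.32). The log2(TPM + 1) difference was 0.56 for Meis1 (SE 0.39, adjusted p = 0.238), -0.53 for Hoxa9 (SE 0.32, adjusted p = 0.18) and -0.18 for Hoxa7 (SE 0.32, adjusted p = 0.64). These levels are near 0 TPM in both cell types. With median centering, which turned the split of all calls from 5202 lower and 2995 higher to 3251 and 5530, Meis1 was called higher in matNeu by 1.32 (adjusted p = 0.0104, limma), and Hoxa9 and Hoxa7 had positive differences of 0.24 and 0.58 that were not called.

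**Figure D2:**
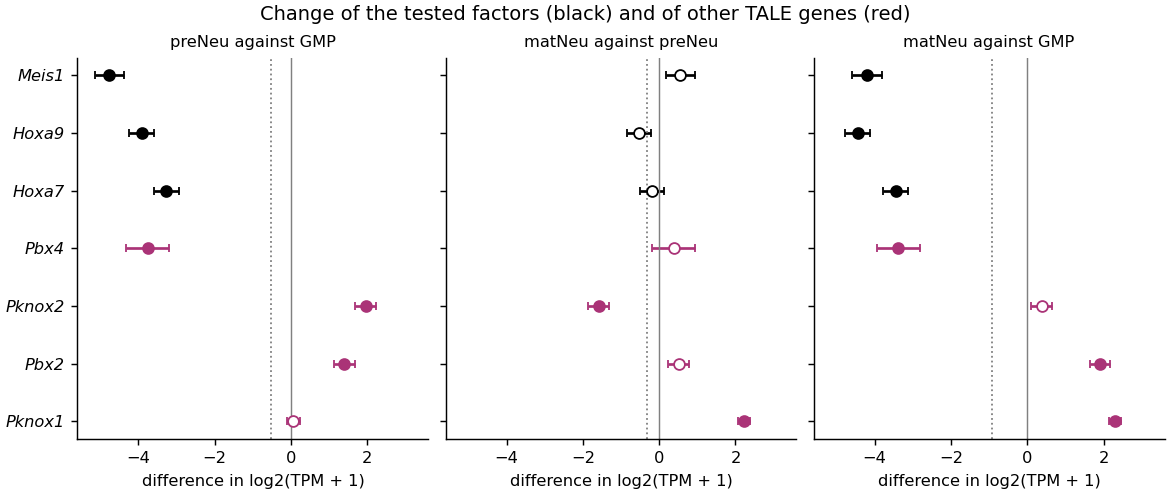
Differences in log2(TPM + 1) with their SE for the 3 genes of the set that were tested (black) and 4 tested TALE genes outside it (red), in the 3 comparisons, where filled points were called at an adjusted p under 0.05 and the dotted line is the median of all 13061 genes. Meis1, Hoxa9, Hoxa7 and Pbx4 lie between -3.27 and -4.76 in preNeu against GMP, while Pbx2 and Pknox2 lie above 1.

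TALE genes outside the set, the other possible partners of HOX proteins, moved in both directions. Of 6 such genes, 4 were tested. Against GMP, 2 were called higher in preNeu (Pbx2 and Pknox2, where 14.7% of all genes were) and 2 in matNeu (Pbx2 and Pknox1, against 22.8%). Of the 4, 1, Pbx4, was called lower in both, where 44.3% and 54.1% of all genes were. With median centering Pknox1 was called higher in preNeu (0.69, adjusted p = 0.0022, limma), as it was with upper quartile scaling (0.53, adjusted p = 0.0112, limma), and Pknox2 in matNeu (1.77, adjusted p = 9.33e-05, limma), which made 3 in each. Pbx2, a broadly expressed PBX gene, was at 5.58, 4.75 and 2.26 TPM in GMPs, 11.4, 12.4 and 12.5 TPM in preNeu and 18.5, 17.4 and 17.2 TPM in matNeu, and it was higher in matNeu than in GMP by 1.91 (SE 0.27, adjusted p = 6.34e-05, limma). Pbx2 and Pbx3 thus differed in opposite directions between GMP and matNeu. The preNeu call of Pbx2 was lost in a limma test against a log2 change of 1 (adjusted p = 0.3). Pbx4 fell in preNeu from 33.1, 31.9 and 12.9 TPM in GMPs to 0, 0.790 and 2.48 TPM, and stood at 0.214, 2.76 and 1.99 TPM in matNeu. Its difference against GMP was -3.76 in preNeu (SE 0.56, adjusted p = 0.000216, limma) and -3.38 in matNeu (SE 0.56, adjusted p = 0.000219, limma), which made it the TALE gene outside the set that moved as Meis1 did. PKNOX proteins are TALE proteins that compete with MEIS for PBX. Pknox1 was at 35.7, 33.8 and 37.8 TPM in GMPs and 35.0, 36.8 and 40.4 TPM in preNeu, and rose to 214, 143 and 187 TPM in matNeu, by 2.23 against preNeu (SE 0.16, adjusted p = 5.72e-07, limma). Pknox2 was at 0.112, 0.0728 and 0.436 TPM in GMPs, 2.81, 3.84 and 4.47 TPM in preNeu and 0.346, 0.426 and 0.944 TPM in matNeu, and rose by 1.96 to preNeu (adjusted p = 0.000136, limma) before it fell by 1.59 to matNeu (adjusted p = 0.000436, limma). Pknox2 passed the filter only through its preNeu libraries, so these tests describe it and are no support. Its fall was not called in a limma test against a log2 change of 1 (adjusted p = 0.0888). Meis2 stayed at or below 0.246 TPM and Meis3 at or below 0.147 TPM in every library.

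The lymphoid markers were higher in the cell types where Pbx2 was higher. The sum of 5 of them was 0.667 to 1.13 TPM in GMPs, 8.47 to 12.5 TPM in preNeu and 27.5 to 53.8 TPM in matNeu. Of these, 3 were tested and all 3 were called higher in matNeu than in GMP, as were 22.8% of all genes. Cd3e was at most at 0.10 TPM in any library. Cd3g, which was not tested either, was at 0, 0.106 and 0.144 TPM in GMPs, 0.229, 0.0507 and 0 TPM in preNeu and 1.21, 0.206 and 0.852 TPM in matNeu. The 6 stem cell markers summed to 11.9 to 20.9 TPM in GMPs, 9.03 to 19.8 TPM in preNeu and 5.60 to 13.7 TPM in matNeu, and the 6 erythroid and megakaryocyte markers to 48.3 to 70.7, 4.43 to 8.12 and 4.58 to 8.82 TPM. The 6 markers of basophils, mast cells and eosinophils summed to 1362 to 1574, 328 to 506 and 1.73 to 13.04 TPM, and the 6 monocyte markers to 1834 to 2192, 35.5 to 65.9 and 267 to 381 TPM, of which Csf1r alone gave a mean of 304 TPM in matNeu and the other 5 at most 11.2 TPM each. The part of other cells in the levels of Meis1, Hoxa9, Hoxa7 and the TALE genes was not tested.

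The 34 other HOX genes gave almost no signal, and 0 of them passed the filter. The highest values were 2.55 TPM for Hoxb3 in GMP library 3, with 0.0848 and 0.206 TPM in the other GMP libraries, and 1.62 TPM for Hoxc9 in matNeu library 1. Hoxa6, which lies between Hoxa5 and Hoxa7, was at 0, 0.974 and 0.266 TPM in GMPs and at 0 elsewhere. HoxA expression above 2 TPM in GMPs was thus limited to Hoxa7 and Hoxa9 among the HoxA genes in the table.

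The MLL-menin machinery, which maintains HOXA and MEIS1 transcription through H3K4 methylation and elongation, was tested in full. Of its 9 genes, 4 were called lower and 0 higher in preNeu against GMP, a share near the 44.3% of all genes called lower, and 7 lower and 0 higher in matNeu against GMP, where 54.1% of all genes were called lower, with median log2(TPM + 1) changes of -0.51 and -0.76 against -0.52 and -0.92 over all genes. Men1, which encodes menin, fell from 84.7, 85.1 and 78.0 TPM in GMPs over 36.0, 28.3 and 38.1 TPM in preNeu to 19.3, 19.2 and 22.7 TPM in matNeu (log2 difference -1.97 between matNeu and GMP, SE 0.16, adjusted p = 6.61e-07, limma). Mllt3, which encodes the elongation factor AF9, fell in preNeu, from 10.2, 7.98 and 7.85 TPM to 0.989, 0.912 and 3.05 TPM (log2 difference -1.95, SE 0.35, adjusted p = 0.000659, limma).

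Dot1l, the H3K79 methyltransferase, fell at the later step. It was at 19.7, 18.3 and 16.5 TPM in GMPs, 11.7, 16.2 and 12.9 TPM in preNeu and 1.38, 0.502 and 2.02 TPM in matNeu. Its difference was -0.40 in preNeu against GMP (adjusted p = 0.249, limma) and -2.71 in matNeu against preNeu (SE 0.28, adjusted p = 1.03e-05, limma). Mllt1, which encodes ENL, likewise was at 14.7, 13.4 and 17.5 TPM, then 11.5, 8.63 and 10.9 TPM, then 1.33, 1.61 and 1.85 TPM, with a difference of -2.12 between matNeu and preNeu (SE 0.23, adjusted p = 1.34e-05, limma). The preNeu differences of Dot1l and Mllt1, which were not called, turned to 0.23 and 0.12 with median centering.

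Of 17 genes known as HOXA9 or MEIS1 targets, 13 were tested, of which 9 were called lower and 2 higher in preNeu against GMP (44.3% and 14.7% over all genes), and 10 lower and 2 higher in matNeu against GMP (54.1% and 22.8%). Their median log2(TPM + 1) change was -1.78 and -2.71, against -0.52 and -0.92 over all genes. Sox4 and Eya1 passed the filter only through their GMP libraries, and Cd34 was part of the GMP sorting gate. These counts and medians thus describe the genes and are no support. Myb, a progenitor transcription factor, fell at both steps, from 192, 188 and 212 TPM over 42.8, 52.0 and 81.4 TPM to 5.17, 7.87 and 6.41 TPM (log2 difference -4.74 between matNeu and GMP, SE 0.23, adjusted p = 1.34e-08, limma). Bcl2, which protects cells from apoptosis, was at 30.04, 28.9 and 25.1 TPM in GMPs and at most at 3.18 TPM in the other libraries (log2 difference -4.18 between matNeu and GMP, SE 0.33, adjusted p = 5.96e-07, limma). Cd34, whose protein was part of the sorting gate of the GMPs, was at 498, 486 and 425 TPM in GMPs and at most at 3.27 TPM elsewhere (log2 difference -7.34 between matNeu and GMP, SE 0.25, adjusted p = 1.2e-09, limma).

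Id2, an inhibitor of helix-loop-helix factors, ran the other way. It was at 11.3, 7.25 and 9.40 TPM in GMPs, 396, 415 and 386 TPM in preNeu and 104, 96.7 and 121 TPM in matNeu. Its log2(TPM + 1) difference was 5.29 in preNeu against GMP (SE 0.16, adjusted p = 3.86e-09, limma) and -1.89 in matNeu against preNeu (SE 0.16, adjusted p = 2.11e-06, limma). The other target called higher in matNeu against GMP was Igf1r, the receptor of insulin-like growth factor (1.89, SE 0.24, adjusted p = 2.32e-05, limma), and the second called higher in preNeu was Erg, an ETS factor of progenitors, at 30.3, 31.7 and 31.2 TPM in preNeu against 10.3, 16.4 and 15.8 TPM in GMPs (1.11, SE 0.38, adjusted p = 0.0286, limma).

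The genes most like each tested factor over the 9 libraries were found by Pearson's r on log2(TPM + 1), as a description, since the libraries fall into 3 groups. Meis1 was most like 2610524H06Rik (r = 0.9933) and Asl (r = 0.9912), and 452 genes reached r = 0.95. Hoxa9 was most like Slc25a3 (r = 0.9954) and Pcbp3 (r = 0.9949), with 791 genes at that level. Hoxa7 was most like Ears2 (r = 0.9959) and Gm14418 (r = 0.9946), with 673. Ears2 followed Hoxa7 also among the GMP libraries, at 10.9, 26.7 and 14.6 TPM.

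CHD4 occupied Meis1 and Pbx3 at several sites in WT GMPs, and the HoxA cluster at 1 weak site. Of 35790 WT CHD4 peaks, 13 lay in a member gene or within 10 kb of it: 9 at Meis1, 3 at Pbx3 and 1 in the HoxA cluster, in the windows of both Hoxa9 and Hoxa10. Hoxa3, Hoxa5 and Hoxa7 had 0. Over all protein-coding genes, 32.4% had at least 1 WT CHD4 peak in the gene or within 10 kb, and Meis1 and Pbx3 span 139 and 202 kb, which gives them wide windows. By their summits and protein-coding genes only, 8 of the 13 sites lay in introns, 2 in coding exons, 1 in a UTR and 2 outside such genes. Of the 13, 4 lay within 3 kb of a member start.

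The strongest sites were distal to the starts. Distances are from the summit to the nearest annotated start of the gene. Meis1 has 4 such starts, so its distances are not all from the same one. That of Pbx3, 11.8 kb downstream of its start, had a fold enrichment over control of 18.2 and lay at percentile 86.7 of all WT peaks. The strongest Meis1 site lay 93.6 kb downstream of the start, with a fold enrichment of 17.1 and percentile 85.2. At the Meis1 start itself, a peak centered 0.491 kb downstream with its summit in a coding exon had a fold enrichment of 12.7, and the peak over the start, centered 0.069 kb downstream, had 4.99. Enrichment above 10 was also found 60.7 kb (11.5) and 48.7 kb (10.9) downstream of the Meis1 start. The Hoxa10 site, 2.25 kb downstream of the nearest Hoxa10 start, had a fold enrichment of 5.27 and lay at percentile 21.2. Of the 13 sites, 8 were below the median of all WT peaks (7.72), and 4, the Hoxa10 site among them, shared exactly the same fold enrichment and q-value.

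**Figure D3:**
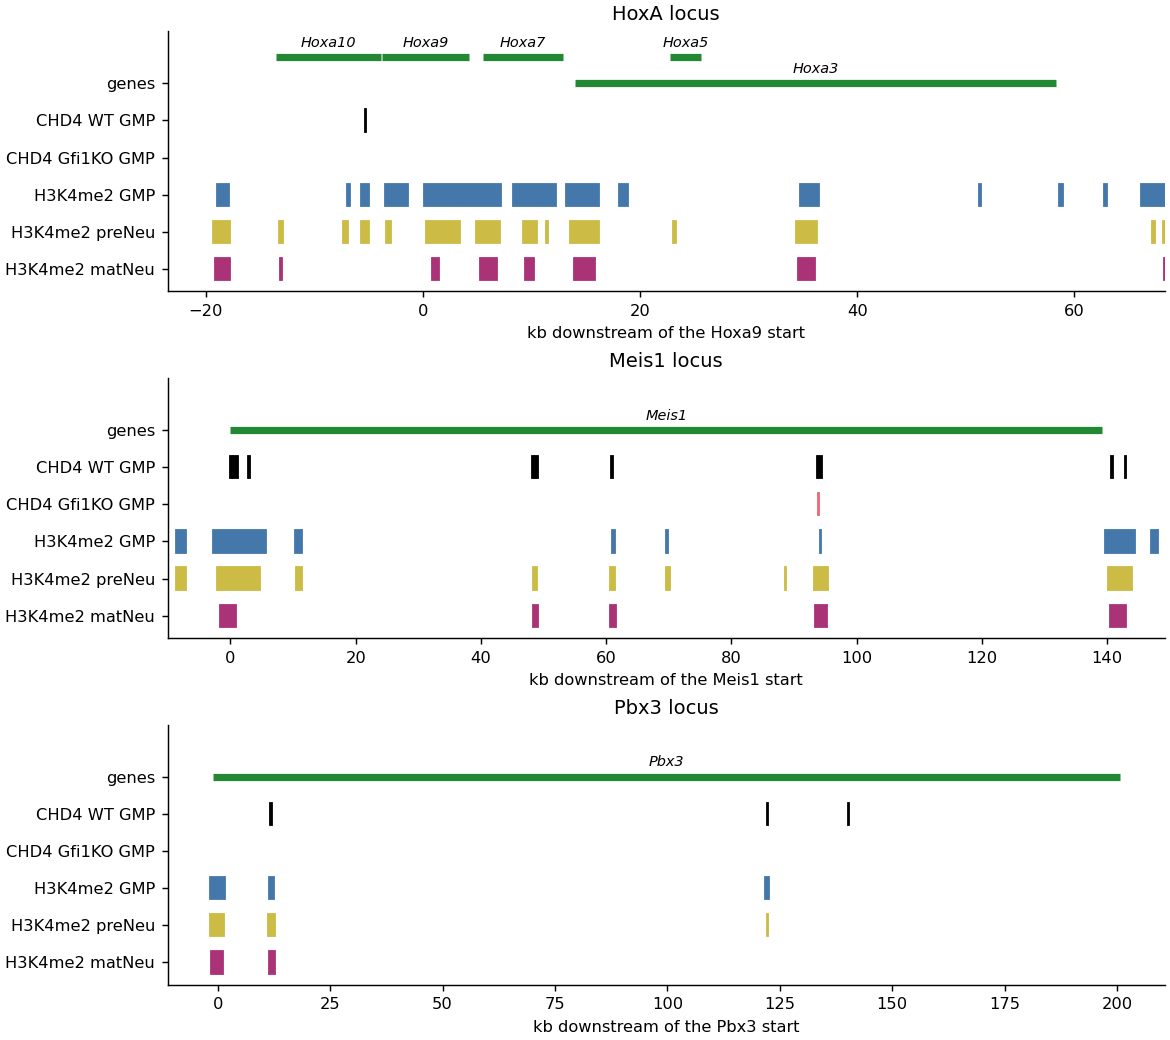
Called peaks at the HoxA, Meis1 and Pbx3 loci, as bars along the distance in kb from the outermost annotated start of Hoxa9, Meis1 or Pbx3 (positive is downstream, all genes being on the minus strand), with member genes in green and a row each for CHD4 in WT and Gfi1KO GMPs and for H3K4me2 in GMP, preNeu and matNeu. A CHD4 peak in Gfi1KO GMPs is drawn only at the intronic Meis1 site that lies 93.6 kb downstream of the nearest, not the outermost, Meis1 start. The H3K4me2 bars around Hoxa9 shorten and split from GMP to matNeu.

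In Gfi1KO GMPs, CHD4 was called at 1 of these 13 sites, that is at 7.69% (95% Wilson interval 1.37% to 33.3%, counting error only). The share over all WT CHD4 peaks was 18.5%, which lies inside this interval. The interval treats the 13 sites as independent, while 9 of them lie at Meis1, and the 18.5% is not matched for enrichment. It thus cannot decide whether these genes differ from all sites. The site that stayed was the intronic Meis1 site 93.6 kb downstream of the start, whose Gfi1KO peak had a fold enrichment of 4.81 and percentile 17.2 of the 7316 Gfi1KO peaks. The strongest Pbx3 site, with the higher enrichment in WT, was not called in Gfi1KO, nor was any site within 3 kb of the Meis1 start or the Hoxa10 site.

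How often a WT site was also called in Gfi1KO depended on its enrichment in WT over all sites, as the plot of sites called in Gfi1KO shows. Among the 1001 WT peaks nearest in enrichment, 54.6% were called in Gfi1KO for the strongest Pbx3 site and 48.9% for the strongest Meis1 site. For the Meis1 sites with fold enrichments of 12.7, 11.5 and 10.9 these shares were 21.0%, 11.1% and 10.3%, and for the 8 weakest sites they lay between 0.40% and 1.80%. Most of the 12 sites that were not called thus had an enrichment at which few sites of the genome were called in Gfi1KO. With 1 library for each genotype there is no replicate check, and the genotype cannot be told apart from differences in depth or ChIP efficiency between the 2 libraries, of which the Gfi1KO library gave 7316 peaks against 35790.

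**Figure D4:**
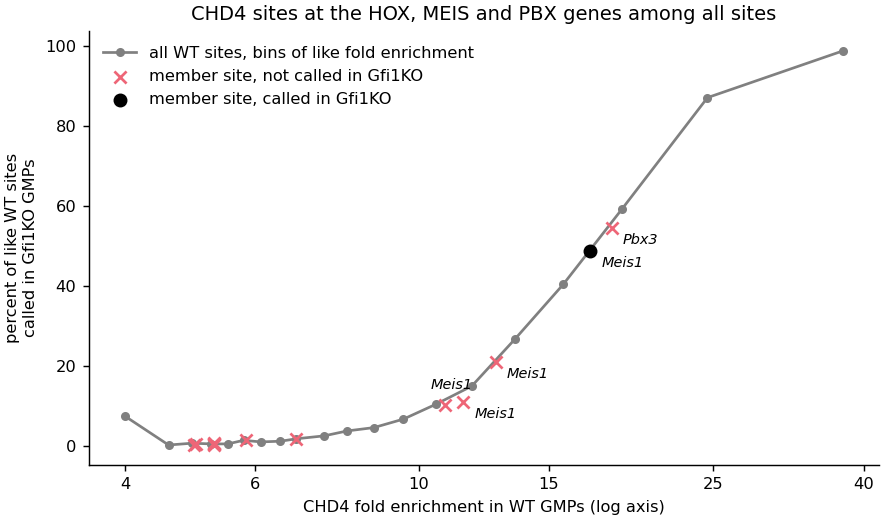
Percent of WT CHD4 sites that overlapped a Gfi1KO peak (vertical axis) against the CHD4 fold enrichment in WT GMPs (horizontal, log axis), in bins of 1790 sites (grey), with the 13 sites at Meis1, Pbx3 and Hoxa10 placed at the share of the 1001 sites nearest in enrichment. The site called in Gfi1KO (black) is a Meis1 site at a fold enrichment of 17.1. Of the 12 sites not called (crosses), 8 lie below 7.72, each placed at a share of at most 1.80%. The bin of lowest enrichment stood at 7.54%.

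H3K4me2 was present at most of the CHD4 sites. Of the 13, 10 overlapped an H3K4me2 peak of GMPs, 12 one of preNeu and 9 one of matNeu, against 37.8%, 59.5% and 52.5% of all WT CHD4 peaks. The 2 neighboring intronic Meis1 sites 48.0 and 48.7 kb downstream of the start had no H3K4me2 peak in GMPs but 1 in preNeu and matNeu, while the Hoxa10 site, the weaker Pbx3 site 122 kb downstream and the Meis1 site 2.69 kb downstream of the start had 1 in GMPs and preNeu and none in matNeu. The site at Pbx3 140 kb downstream had none at any stage. The sites share loci and are not independent of each other.

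H3K4me2 receded at the HoxA cluster from GMP to matNeu, while the H3K4me2 peaks as a whole covered more of the genome in preNeu and matNeu than in GMPs. H3K4me2 peaks covered 24.2 kb of the 91.8 kb HoxA locus (from 10 kb outside Hoxa3 to 10 kb outside Hoxa10) in GMPs, 15.7 kb in preNeu and 7.98 kb in matNeu, or 26.3%, 17.1% and 8.70%. The 3 lists as a whole covered 49.8, 97.9 and 80.4 Mb. Over the windows of all 21938 protein-coding genes the median share was 3.83%, 6.43% and 4.81%. The mean fold enrichment of the HoxA peaks, weighted by width, was 3.74, 5.77 and 5.82, and the median over all peaks of the lists was 2.89, 4.55 and 3.78.

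**Figure D5:**
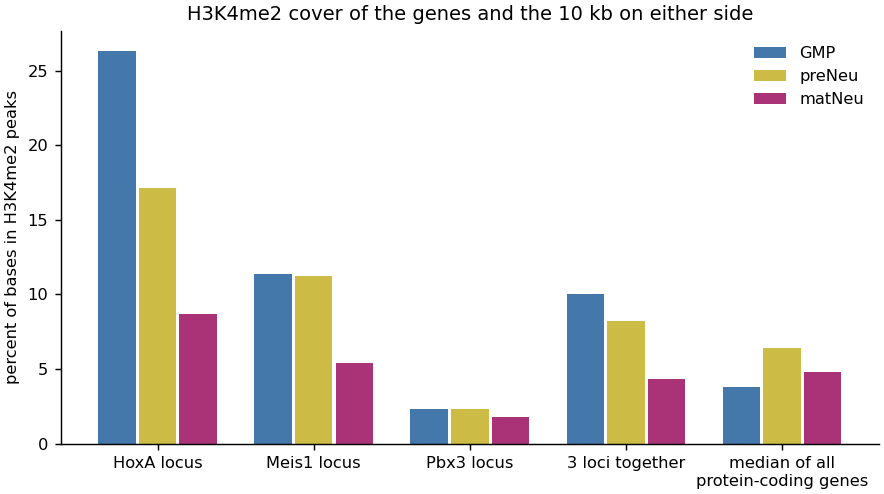
Percent of bases in H3K4me2 peaks over the HoxA, Meis1 and Pbx3 loci (genes and 10 kb on either side), the 3 loci together, and the median over all protein-coding genes, with a bar for each cell type from 1 library each. HoxA fell from 26.3% in GMPs to 8.70% in matNeu, whereas the median gene went from 3.83% to 4.81%.

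Of the 5 HoxA members, Hoxa7 and Hoxa9 had the widest cover in GMPs and the largest differences. With 10 kb on either side, the share at Hoxa7 was 62.6% in GMPs, 36.1% in preNeu and 17.5% in matNeu. At Hoxa9 it was 55.1%, 33.8% and 12.2%, at Hoxa10 35.2%, 26.7% and 10.2%, at Hoxa3 24.7%, 14.1% and 9.09%, and at Hoxa5 21.2%, 18.5% and 13.03%. These windows overlap each other, so they are not separate measurements. The peak over the inner start of Hoxa9 was 7123 bp wide in GMPs, 3102 bp in preNeu and 587 bp in matNeu, with fold enrichments of 3.98, 3.43 and 2.74. The span of that GMP peak (chr6:52220163-52227285) held another peak at its Hoxa7 end in preNeu (chr6:52220241-52222427) and matNeu (chr6:52220546-52222072). These peaks were 2187 and 1527 bp wide, with the higher fold enrichments of 9.67 and 9.06. The span of the GMP peak was thus called as separate peaks in preNeu and matNeu. The widths over the Hoxa9 start leave out the part at the Hoxa7 end. Enrichment was computed in each list on its own, so these values are not on a shared scale. The peak over Hoxa7 starts narrowed from 3961 bp over 1247 bp to 767 bp, and that over the Hoxa3 start from 3073 bp over 2715 bp to 1919 bp.

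Not all of the cluster changed in this way. A peak within Hoxa3, in the window of Hoxa5 (chr6:52190846-52192661 in GMPs), was 1816 bp wide in GMPs, 1925 bp in preNeu and 1584 bp in matNeu with fold enrichments of 4.56, 12.96 and 10.6. The separate peak inside the span of the GMP peak over Hoxa9, at its Hoxa7 end, was likewise among the more enriched peaks of the cluster in preNeu and matNeu. The start of Hoxa5 and both starts of Hoxa10 lay in no H3K4me2 peak in any cell type, whereas 5 of the 7 genes had at least 1 start in a peak in all of them. The outer start of Hoxa9 (chr6:52227370) also lay in no peak in any cell type. The outer start of Hoxa7 (chr6:52218711) lay in a peak in GMPs only.

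At Meis1 the narrowing came at the later step. The Meis1 locus (159 kb) was covered to 11.4% in GMPs, 11.3% in preNeu and 5.43% in matNeu. The peak over the Meis1 start was 8345 bp wide in GMPs, 6883 bp in preNeu and 2542 bp in matNeu, with fold enrichments of 4.14, 7.58 and 9.93 in the separate lists. The Meis1 start thus lay in an H3K4me2 peak in matNeu too, where its level was at most 2.34 TPM.

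Pbx3 had little cover and the strongest start. Its locus (222 kb) was covered to 2.31%, 2.31% and 1.75%. The peak over the Pbx3 start was 3185, 3261 and 2663 bp wide in GMPs, preNeu and matNeu, with fold enrichments of 4.87, 17.2 and 13.9 at percentiles 98.5, 99.7 and 99.5 of the list of each. Pbx3 was listed at 0 TPM in all matNeu libraries. The only ATAC-seq peak at the 7 genes also lay at the Pbx3 start (444 bp, fold enrichment 3.51, percentile 47.6), among 16307 peaks. The ATAC-seq lists titled preNeu and matNeu were identical in all 16307 peaks, so that no comparison between these cell types was possible. All of these peaks are named Neutrophile, a name also given to all 44094 H3K4me2 peaks titled matNeu and to 0 of those titled preNeu.

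Over the 3 loci together (473 kb), H3K4me2 peaks covered 10.03% in GMPs, 8.20% in preNeu and 4.34% in matNeu. With peaks of a -log10 q of at least 5 only, the shares were 8.06%, 5.40% and 3.34%. The covered share was lower in preNeu than in GMP at 7 of the 7 genes, and lower in matNeu than in GMP at 7 of the 7, where 17.6% and 35.8% of the 17018 protein-coding genes with any H3K4me2 peak were lower. The windows of the HoxA genes overlap, so the 7 genes stand for 3 loci and are not separate measurements. At Meis1 and Pbx3 the preNeu difference was small, and with 5 kb on either side Meis1 was covered to 10.1% in GMPs and 10.9% in preNeu. With 1 H3K4me2 library for each cell type there is no replicate check.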

How the data were processed

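The deposited expression table of the authors gives TPM values per gene. The submitters' processing notes list kallisto 0.44.0 without saying which file it made, whereas the study's methods name TopHat and HTSeq for RNA-seq, so how the TPM values were made is not settled. The authors deposited MACS-style peak lists with fold enrichment over control (a ratio) and -log10 q values, and the notes also list BWA 0.7.17, MACS2 2.1.0 and Trimmomatic 0.36. Coordinates were read as GRCm38 with GENCODE M21, and 0 peaks ran past its chromosome ends. The GFI1 and H3K4me3 lists, with 12 peaks each beyond those ends and scaffold names of another species' assembly, were not used here.

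TPM values were taken as log2(TPM + 1). The 13061 genes that reached 1 TPM in 3 or more of the libraries were fitted with limma 3.58.1 (variance trend, R 4.3.3) over all 9 libraries, with Benjamini-Hochberg adjustment at 0.05 over all tested genes. Peaks were assigned to genes within 10 kb, and a CHD4 site counted as called in Gfi1KO when peaks shared at least 1 bp. Exact permutation of 3 against 3 libraries cannot give a p below 0.1, so no such test was run. The scripts were tested on simulated data. The members and the gene lists were chosen with earlier results of these data known. Members are described in full. From each other list, up to 4 genes with the largest change between matNeu and GMP among those past the threshold are named, with every TALE gene, for each tested member the 2 genes with the highest r, and, of the CHD4 peaks, the strongest at each locus and every one kept in Gfi1KO. Hoxb3, Hoxc9, Hoxa6, Igf1r, Erg and the remaining CHD4 and H3K4me2 peaks were named after their values were seen. Some items of the gene lists are not reported here and were left out of the counts and sums.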

Additional observations from a re-analysis of the deposited data

How the results depend on the processing

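The alternatives were another pseudocount, no filter and a stricter one, median centering, upper quartile scaling, fits of 2 groups only, a replicate block, no variance trend, a test against a change of 1, and leaving out each library. The number of members called lower was 3, 0 and 3 for preNeu against GMP, matNeu against preNeu and matNeu against GMP, and without the filter it was 3, 1 and 4, the added gene being Pbx3 in both. The fit of preNeu and matNeu alone tested 0 members, so its count of 0 says nothing. Leaving out a library gave 2 to 3, 0 to 0 and 2 to 3, the lower number where a GMP library was left out, since Hoxa7 then missed the filter. Replicate numbers did not pair the libraries (r of the deviations from -0.0394 to 0.123), and with the replicate block the members called lower were 3, 0 and 3, with 5729, 5172 and 7065 genes called lower in all.

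With median centering the difference turned to 0.23 for Dot1l and 0.12 for Mllt1 in preNeu against GMP, and in matNeu against preNeu to 0.58 for Hoxa7, 0.24 for Hoxa9, 0.22 for Mllt3, 0.056 for Men1, 0.67 for Cd34 and 0.072 for Bcl2. With upper quartile scaling it turned to 0.056 for Dot1l in preNeu against GMP and 0.20 for Cd34 in matNeu against preNeu, where the calls became 3761 lower and 2949 higher, 4307 and 4061, and 5420 and 4546 in the 3 comparisons. With a pseudocount of 0.1, the difference became -5.81 for Hoxa7 and 3.79 for Pknox2 in preNeu against GMP, -2.58 for Pknox2 in matNeu against preNeu, and -6.64 for Hoxa7 and -7.02 for Hoxa9 in matNeu against GMP, and with median centering that of Hoxa7 in matNeu against GMP became -2.06, all with their calls kept. Median centering also moved matNeu against GMP to 3.30 for Pbx2, 3.69 for Pknox1, -1.99 for Pbx4, -1.72 for Dot1l, -1.24 for Mllt1, -1.10 for Mllt3, -0.57 for Men1 and -2.78 for Bcl2, preNeu against GMP to -0.63 for Men1 and -1.15 for Myb, and matNeu against preNeu to -1.36 for Mllt1, -1.13 for Id2 and -0.82 for Pknox2, each still called. With the test against a change of 1, 1955, 2678 and 4942 genes were called lower. In matNeu against preNeu, where none of the 3 was called, leaving out a library gave -0.28 to 0 for Hoxa7 (0 without preNeu library 3), -0.063 to 0.87 for Pbx4 (below 0 without preNeu library 1) and -0.33 to 0.14 for Cd34 (above 0 without preNeu library 2). The causes were not tested.

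CHD4 was called in Gfi1KO at 1 of 13 sites under each alternative, or at 1 of 11 (9.09%) within gene bodies only. H3K4me2 covered 8.06%, 5.40% and 3.34% of the member loci in GMP, preNeu and matNeu with a -log10 q of at least 5, 9.41%, 8.08% and 4.48% with 5 kb on either side, 7.46%, 6.62% and 3.43% within gene bodies only, and 7.25% in preNeu with an equal number of peaks (37643) in each list. The order of the cell types held in each for the loci together and for HoxA, but at Pbx3 with a -log10 q of at least 5 the shares were 1.44%, 2.14% and 1.75%, and at Meis1 preNeu exceeded GMP with 5 kb on either side and within gene bodies. Depth, which the files do not give, limits every value near 0 TPM.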
